A study of Homo sapiens with 2 samples.

Results

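Genes of membrane trafficking were compared between HT29 cells transfected with a control siRNA and HT29 cells transfected with an siRNA against *REG4*. They were chosen by symbol: every gene with a named probe set whose symbol starts with RAB, VPS, SNX, STX or VAMP and a digit, CHMP and a digit from 1 to 7, SEC and a number in the twenties or sixties, COP and one of the letters A, B, G, E or Z, TBC1D, or EXOC. This rule uses no measured value. It found 135 genes, measured by 142 probe sets, out of 14812 genes with a named probe set, and 124 of the 135 encode proteins. Of 44629 probe sets, 15835 are named. A gene is called measured below only if it has a named probe set, and unnamed probe sets may read others.

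HT29 is an established human colon cancer cell line. The siControl and siREG4 groups hold 1 array each, and transfection is the only treatment the labels give to either. The label for treatment of the siREG4 array names GATA6, whereas its title and source name give REG4. The title decided the group here. *REG4*, the secreted lectin that the siRNA targets, was not analysed here, so the knockdown could not be checked on these arrays. The deposited values are log2 values centred for each probe set on the midpoint of both arrays. Each pair of values holds only how far the arrays lie apart, so neither the cell line's markers nor the abundance of any gene could be examined, and a gene that is silent cannot be told apart from one that is expressed equally. With 1 array per group there is no replicate check on any difference below, no test was possible, and differences are given as a description of these arrays.

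Proteins move between the compartments of a cell in vesicles. Coat proteins shape the vesicle and select its cargo, RAB GTPases mark each membrane and recruit tethers, and SNARE proteins (the syntaxins and VAMPs among them) fuse vesicle and target. COPII coats carry new proteins from the endoplasmic reticulum (ER) to the Golgi, and COPI coats return material to the ER. In endosomes, sorting nexins and the retromer return receptors to the cell surface or the Golgi, whereas ESCRT complexes pull ubiquitinated receptors into internal vesicles for destruction in the lysosome. The exocyst tethers secretory vesicles to the plasma membrane. In the intestinal epithelium these routes deliver mucins and other secreted proteins and keep apical and basolateral surfaces distinct.

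The members fell unevenly over these machineries. Despite the prefix, none of 63 RAB GTPases listed by transport step had a named probe set (0 genes), nor did any of the 8 COPI coatomer subunits whose symbols start with COP. The 13 members whose symbols begin with RAB were regulators, effectors, partners and non-coding genes, and the GTPase-like *RAB6D*. The other members are counted here by prefix, with non-coding genes and pseudogenes included. They hold 36 VPS, 28 SNX, 17 STX, 11 SEC, 10 CHMP, 10 EXOC, 7 VAMP and 3 TBC1D genes. By transport step, 84 genes were placed with endosomes, 23 with exocytosis, 7 between ER and Golgi, 5 with the translocon of the ER and 2 with the TBC1D proteins. *VPS72* matched by symbol but encodes a chromatin subunit. The other 13 genes, 11 of them non-coding, were given no step.

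The genes as a whole were centred near 0 and spread to both sides. Their median difference, siREG4 minus siControl, was 0.03 on the log2 scale, beside a median of 0.0 over all named genes. The differences ran from -0.79 for *VPS36* to 0.89 for *CHMP1B*. The methods of the study call genes by a decrease of more than 1.4-fold, and the same size was applied here in both directions. At this threshold, 4 genes were lower in siREG4, against a background of 1.67% of all named genes. Another 3 were higher, against a background of 1.51% of all named genes. Together these 7 genes were 5.19% of the members, beside 3.19% of all named genes. At 1.2-fold, 13 genes were lower, with 7.04% of all named genes past that threshold, and 20 were higher, with 5.95%. Both directions together came to 24.4% of the members and 13.0% of all named genes. Among protein-coding genes the shares past 1.2-fold were 26.6% of 124 members and 14.8% of 11910 genes. No member differed by 2-fold (0 genes).

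For a gauge of array noise, 84 genes of keratin-associated proteins (*KRTAP*) were taken, which are made in hair and were assumed silent here. This gauge covers dim probe sets only. The *KRTAP* genes ran from -0.22 to 0.30 with an SD of 0.09 across genes. Of the members, 102 lay within that range, 17 below it and 16 above it. The 33 genes outside it were 24.4% of the members, beside 14.0% of all named genes and 15.8% of the protein-coding ones. All 11 members that do not encode proteins were inside it, between -0.20 and 0.07. The median size of a difference, whatever its sign, was 0.12 for the protein-coding members and 0.08 for all named protein-coding genes. All named genes include tissue-restricted ones, and the values carry no level on which to match them, so the part of silent genes in this gap was not tested.

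**Figure D1:**
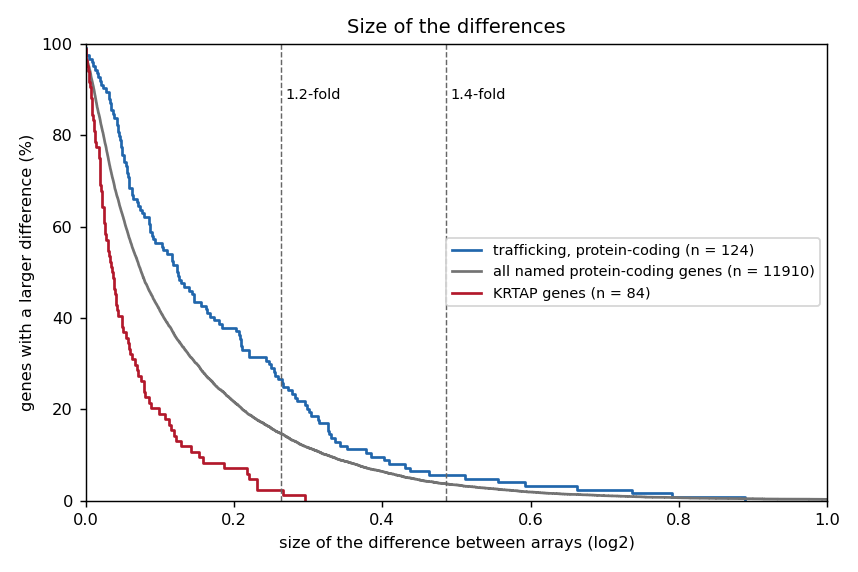
Share of genes, in percent, whose difference between the arrays exceeds the size on the horizontal axis (log2 units), for the 124 protein-coding trafficking genes, all 11910 named protein-coding genes and the 84 *KRTAP* genes. At 1.2-fold the trafficking line stands at 26.6% and the line of all genes at 14.8%, and at 1.4-fold they stand at 5.65% and 3.72%.

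All 3 steps had medians slightly above 0. The median was 0.06 for the 7 ER to Golgi genes, 0.04 for the 84 endosome genes and 0.01 for the 23 exocytosis genes, whose mean was -0.02. Endosome genes covered the widest range, from -0.79 to 0.89, and it contained both others. Past 1.2-fold lay 22 endosome genes (26.2%), 5 exocytosis genes (21.7%) and 3 ER to Golgi genes (42.9%), beside 14.8% of all named protein-coding genes. The last share rests on 7 genes. No order of the steps can be read from these values.

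**Figure D2:**
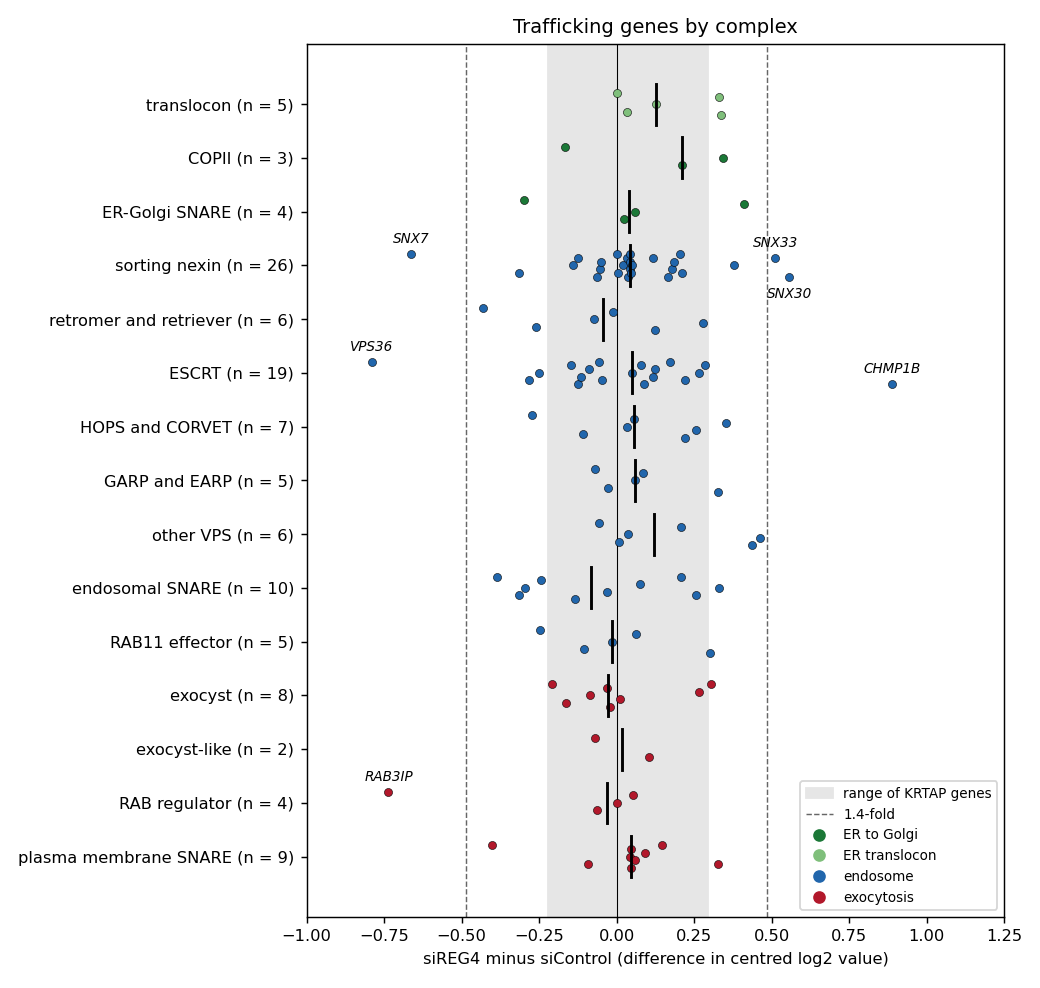
Difference between the arrays (siREG4 minus siControl, centred log2 value) for the trafficking genes of the translocon, ER to Golgi, endosome and exocytosis groups, 1 point per gene, coloured by transport step, with a bar at the median. Grey marks the range of the *KRTAP* genes, dashed lines mark 1.4-fold, and of the genes shown *VPS36*, *RAB3IP* and *SNX7* lie past it on the left and *CHMP1B*, *SNX30* and *SNX33* on the right.

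At the entry to the secretory pathway, no measured translocon gene was lower in siREG4. *SEC61A1*, the pore of the channel through which new proteins enter the ER, was at 0.17 in siREG4 and -0.17 in siControl, a difference of 0.34 (1.26-fold higher). *SEC63*, a partner of the channel that helps to engage the chaperone BiP, differed by 0.33. *SEC62*, another partner, averaged 0.13, but its probe sets disagreed, at 0.33 and -0.08. The paralogous pore subunit *SEC61A2* (0.03) and the small subunit *SEC61B* (0.0) showed little or no difference. None of the 5 passed 1.4-fold.

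In the COPII coat, both SEC23 genes, which encode the subunit that stimulates GTP hydrolysis by SAR1, were higher in siREG4. *SEC23B* was at 0.17 in siREG4 and -0.17 in siControl, a difference of 0.34 (1.27-fold), and *SEC23A* differed by 0.21. *SEC23IP*, which binds SEC23 at ER exit sites, was on the other side at -0.17. None of the 4 SEC24 cargo adaptors had a named probe set. Among the SNAREs of this step, *STX18*, an ER syntaxin that receives retrograde vesicles, was the highest at 0.20 in siREG4 and -0.20 in siControl, a difference of 0.41 (1.33-fold). *SEC22C*, an ER protein related to the SNARE SEC22B, was the lowest at -0.30, and *SEC22B* itself (0.06) and the Golgi syntaxin *STX5* (0.02) were close to 0. *SEC22B* has near-identical copies in the human genome, and its probe set may read them.

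Genes that work with these were listed separately. Of 77 listed partners of ER to Golgi transport 64 were measured, with a median of 0.02. None passed 1.4-fold (0 genes), beside 3.72% of all named protein-coding genes. *GOSR2*, a Golgi SNARE, and *TRAPPC9*, a subunit of the TRAPPII tether, were the highest, both at 0.37. *ARCN1* (0.37), chosen after its value was seen, is the coatomer subunit whose symbol the COP rule does not catch. *TRAPPC6A* (-0.31) and *TRAPPC1* (-0.27), subunits of the same family of tethers, were the lowest. TRAPP subunits thus stood at both ends of this list.

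The promoters of these genes were read for the sequences through which ER stress acts. The window ran from 250 bases before to 50 bases after the start of each gene (RefSeq, GRCh38.p14), and it was found for 104 of the 135 members. TGACGTGG, an element read by XBP1 and ATF6, was searched on both strands and occurred in 4 of the 104 windows (3.85%) and in 0.795% of all 27305 windows. The 4 were *SEC23A*, *SEC62*, *STX5* and *SNX21*, of which the first 3 act at the ER or between ER and Golgi. They are printed because their differences were all above 0, at 0.21, 0.13, 0.02 and 0.18, a choice made after the values were seen. All 4 lie within the *KRTAP* range, and the probe sets of *SEC62* differ in sign. Whether the element acts in these cells was not tested. Each stretch is given 5′ to 3′ on the gene's strand, with the element in capitals.
SEC23A, chr14:39103221-39103250, minus strand: tcccctcctctTGACGTGGcagaggcggcg
SEC62, chr3:169966740-169966806, plus strand: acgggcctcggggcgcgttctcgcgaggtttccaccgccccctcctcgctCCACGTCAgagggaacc
STX5, chr11:62832052-62832117, minus strand: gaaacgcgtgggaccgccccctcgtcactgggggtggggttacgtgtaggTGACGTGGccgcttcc
SNX21, chr20:45833568-45833675, plus strand: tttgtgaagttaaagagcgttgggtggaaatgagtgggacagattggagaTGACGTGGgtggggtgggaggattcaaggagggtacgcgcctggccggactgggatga
In *SEC62* the element reads on the opposite strand, and in *SEC23A* it lies across the start. Over all 103 named genes with this element the median difference was 0.00, and 51.5% were higher in siREG4, beside 47.8% of the 10736 named genes with a window. The longer ER stress element, known as ERSE, was found in no member (0 of 104) and in 0.0806% of all windows.

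At the endosome, the ESCRT genes held both extremes of the whole set. *CHMP1B*, an ESCRT-III related subunit that recruits enzymes to the assembled filament, was at 0.44 in siREG4 and -0.44 in siControl, a difference of 0.89 (1.85-fold higher). *VPS36*, the ESCRT-II subunit that binds ubiquitinated cargo and membrane lipid, was at -0.40 in siREG4 and 0.40 in siControl, a difference of -0.79 (1.73-fold lower). No other ESCRT gene passed 1.4-fold, so the share past it was 10.5%, beside 3.72% of all named protein-coding genes. The median of the 19 measured ESCRT genes was 0.05, with 9 below 0 and 10 above.

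The rest of ESCRT-III lay closer to 0. The 10 measured CHMP genes ran from *CHMP2B* (-0.25) to *CHMP1B*, with a median of 0.08. *CHMP4B*, the main filament-forming subunit, was at 0.29 and *CHMP5*, a regulatory subunit, at 0.27. *CHMP4C* (0.12), *CHMP7* (0.09), *CHMP2A* (0.08) and *CHMP6* (0.05) were slightly above 0, and *CHMP4A* (-0.05) and *CHMP1A* (-0.15) below it. *VPS4B* and *VPS4A*, the ATPases that take the filament apart, were at -0.28 and -0.06. *VPS25*, the other measured subunit of ESCRT-II, was at -0.12. In ESCRT-I, *VPS28* (0.22) and *VPS37C* (0.17) stood above 0 and *VPS37A* (-0.13) below it.

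The *CHMP1B* promoter holds an E2F-like element, TTTGGCGC. It was found on either strand in 1 of the 104 member windows (0.962%) and in 0.659% of all windows. The stretch around it is shown because *CHMP1B* had the largest difference among the members, with the element in capitals.
CHMP1B, chr18:11851302-11851409, plus strand: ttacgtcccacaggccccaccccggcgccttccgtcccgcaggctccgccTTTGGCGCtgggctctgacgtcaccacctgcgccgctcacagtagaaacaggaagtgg
Of 94 named genes with this element, 33.0% were higher in siREG4, beside 47.8% of the 10736 named genes with a window. Their median was -0.05. Past 1.4-fold, 8 were lower and 1 was higher, which is *CHMP1B* itself. Of all named genes, 1.67% were lower and 1.51% higher past that threshold. Any role of the element was not tested. The other E2F sequence searched, TTTCCCGC, was in no member window (0 of 104) and in 1.66% of all windows. CACGTG, the E-box, was in 10.6% of member windows and 7.43% of all, and TCACGTGA, the core of the CLEAR element of lysosomal genes, which contains it, in 3.85% and 1.04%. All windows include genes without a named probe set. Among the 10736 named genes with a window, 969 held CACGTG and 160 held TCACGTGA, beside 11 and 4 of the 104 member windows. The 4 members with the CLEAR core lay between -0.24 (*STX6*) and 0.05 (*RAB3GAP2*), with *CHMP4A* and *VPS11* at -0.05 and 0.03.

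Sorting nexins, proteins that bind endosomal phosphoinositides through a PX domain, supplied 3 of the 7 genes past 1.4-fold. These were 11.5% of the 26 protein-coding sorting nexins, beside 3.72% of all named protein-coding genes. *SNX7* was at -0.33 in siREG4 and 0.33 in siControl, a difference of -0.66 (1.58-fold lower). *SNX30* was at 0.28 in siREG4 and -0.28 in siControl, a difference of 0.56 (1.47-fold higher). Both encode membrane-curving sorting nexins that pair with SNX4 in recycling and autophagy, and *SNX4* was at -0.06. The paralogs thus stood on opposite sides, 1.22 apart on the log2 scale, while their shared partner lay near 0. *SNX33*, an SH3 domain sorting nexin of endocytosis, was at 0.26 in siREG4 and -0.26 in siControl, a difference of 0.51 (1.43-fold higher). Its relatives *SNX9* and *SNX18* were at 0.20 and -0.12.

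The other protein-coding sorting nexins did not pass 1.4-fold, and the median of all 26 was 0.04, with 18 above 0, 7 below and 1 at 0. Of the 11910 named protein-coding genes, 5679 were above 0, 5863 below and 368 at 0. Within the *KRTAP* range lay 21 of the 26. *SNX29* was at 0.38. Its pseudogenes *SNX29P1* and *SNX29P2* were at 0.06 and 0.07, and near-identical copies can share probe signal. *SNX5*, a dimer subunit that works with the retromer, was at -0.32 and its paralog *SNX6* at 0.21. Their partners *SNX1* and *SNX2* were at -0.06 and -0.05, and *SNX27*, which links recycling cargo to the retromer, was at 0.18.

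Genes of the retromer core lay on both sides of 0. *VPS29*, its metallophosphatase-like subunit, was at -0.22 in siREG4 and 0.22 in siControl, a difference of -0.43 (1.35-fold lower). *VPS35*, the scaffold, was at -0.26, whereas *VPS26A* and *VPS26B*, alternative arrestin-like subunits, were at 0.12 and 0.28. The retriever subunits *VPS26C* (-0.07) and *VPS35L* (-0.01) were close to 0. None of the 6 passed 1.4-fold.

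Among the tethers, *VPS18* (0.35), *VPS41* (0.25) and *VPS39* (0.22) of HOPS, which joins late endosomes and lysosomes, were above 0, and *VPS33A* (-0.11) below it. *VPS33B*, which works with VIPAS39, was at -0.27. In the GARP and EARP tethers, *VPS53* (0.33) stood above the other 4 subunits, which lay from -0.07 to 0.09. The bridge-like lipid transfer proteins came nearest to the threshold without passing it: *VPS13C* was at 0.46 (1.38-fold) and *VPS13B* at 0.44 (1.35-fold), with *VPS13D* at 0.21 and *VPS13A* at -0.06. Just past the threshold were *SNX33* (1.43-fold) and *SNX30* (1.47-fold).

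Endosomal SNAREs had a median of -0.08, with 6 of 10 below 0. *VAMP3*, the cellubrevin of recycling endosomes, was at -0.19 in siREG4 and 0.19 in siControl, a difference of -0.38 (1.31-fold lower). *STX10* (-0.31) and *STX6* (-0.24), syntaxins of the trans-Golgi network, and *STX8* (-0.30), a late endosomal syntaxin, were also below 0. On the other side were *STX12* (0.33), *VAMP8* (0.25), which also fuses secretory granules and autophagosomes, and *VAMP4* (0.21). None passed 1.4-fold. The RAB11 effectors, which link recycling endosomes to motors, ran from *RAB11FIP2* (-0.25) to *RAB11FIP4* (0.30).

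Of 97 listed partners at the endosome 45 were measured, around a median of -0.02. Of these, 4 (8.89%) passed 1.4-fold, beside 3.72% of all named protein-coding genes. The largest difference was that of *EEA1*, the tether of early endosomes that RAB5 recruits, at 0.55 in siREG4 and -0.55 in siControl, a difference of 1.11 (2.16-fold higher). It exceeded every gene chosen by symbol. *EHD2*, an ATPase that stabilizes caveolae, was at 0.74 and *IGF2R*, the receptor that carries lysosomal enzymes, at 0.68. *LAMP1*, a lysosomal membrane glycoprotein, was at -0.51 and *COMMD4*, a subunit of the COMMD assembly that works with retriever, at -0.38. *VIPAS39*, the partner of VPS33B, was at 0.27, opposite to it in sign.

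**Figure D3:**
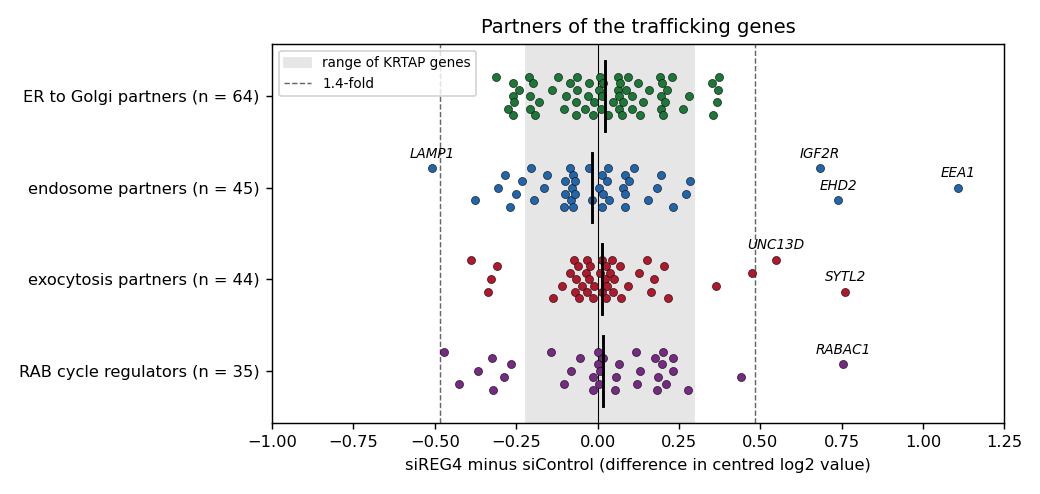
Difference between the arrays (siREG4 minus siControl, centred log2 value) for the measured genes of 4 partner lists, 1 point per gene, with a bar at each median, the *KRTAP* range in grey and 1.4-fold as dashed lines. Labelled genes are past 1.4-fold: *EEA1*, *EHD2*, *IGF2R*, *SYTL2*, *UNC13D* and *RABAC1* on the higher side and *LAMP1* on the lower.

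In exocytosis, 1 of 23 genes passed 1.4-fold (4.35%, beside 3.72% of all named protein-coding genes). *RAB3IP*, which encodes Rabin8, the exchange factor that activates RAB8 on vesicles bound for the apical membrane and the cilium, was at -0.37 in siREG4 and 0.37 in siControl, a difference of -0.74 (1.67-fold lower). *RAB3IL1*, its paralog, was at 0.00. *RAB3GAP1* and *RAB3GAP2*, which together act on RAB3 and RAB18, were at -0.06 and 0.05. RAB8 itself was not analysed here.

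No exocyst gene passed 1.4-fold. The 8 measured subunits had a median of -0.03 and ran from *EXOC8* (-0.21) to *EXOC4* (0.30) and *EXOC1* (0.26). The remaining subunits were *EXOC6B* (-0.16), *EXOC3* (-0.09), *EXOC2* (-0.03), *EXOC5* (-0.02) and *EXOC6* (0.01). Among SNAREs of the plasma membrane, *VAMP2*, a vesicle SNARE of regulated secretion, was at -0.20 in siREG4 and 0.20 in siControl, a difference of -0.40 (1.32-fold lower). *STX1A*, best known from neurons, was the highest at 0.33. *STX3*, the apical syntaxin of enterocytes, and *STX4*, the basolateral one, were at 0.05 and 0.06.

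Of 55 listed partners in exocytosis 44 were measured, with a median of 0.01. Past 1.4-fold were 2 (4.55%), both higher, beside 3.72% of all named protein-coding genes. *SYTL2*, a RAB27 effector that docks vesicles at the apical membrane, was at 0.38 in siREG4 and -0.38 in siControl, a difference of 0.76 (1.70-fold higher), and *UNC13D*, which primes granules for fusion, was at 0.55. *MLPH*, another RAB27 effector, was at 0.48 and just short of the threshold, and it was chosen after its value was seen. *STXBP5* (-0.39), a tomosyn that holds syntaxins inactive, and *MYO5C* (-0.34), a vesicle motor of epithelia, were the lowest.

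Many TBC1D proteins accelerate GTP hydrolysis by RABs, and whether the measured ones do was not examined here. Of 38 listed, *TBC1D31* and *TBC1D32* were measured. *TBC1D31*, a protein of centriolar satellites, was at -0.30 in siREG4 and 0.30 in siControl, a difference of -0.59 (1.51-fold lower), and *TBC1D32*, a ciliary protein, was at -0.02. Among 35 measured of 46 listed regulators of the RAB cycle, the median was 0.02. Only 1 (2.86%) passed 1.4-fold, beside 3.72% of all named protein-coding genes. This was *RABAC1*, a RAB acceptor of the Golgi, at 0.76 (1.69-fold higher). *MADD*, an exchange factor for RAB3 and RAB27, was at 0.44, and the DENN domain exchange factors *DENND5B* (-0.47) and *DENND1B* (-0.43) were the lowest.

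Paralogs were also set side by side. The members hold 11 sets of protein-coding genes that share a symbol up to a final letter, and 8 of these sets had members of both signs. The median gap between the lowest and the highest gene of a set was 0.33, and 2 sets spanned more than 1.4-fold, *CHMP1A* with *CHMP1B* (1.04 apart) and the VPS13 genes (0.52 apart). Of 8 sorting nexin subfamilies, 4 had both signs and 3 spanned more than 1.4-fold. These were *SNX7* with *SNX30*, the *SNX9* group (0.63 apart) and the *SNX5* group (0.53 apart). *SNX1* and *SNX2* were the closest pair, 0.0035 apart, and *SEC23A* and *SEC23B* were above 0 together, as *VPS4A* and *VPS4B* and also *VPS33A* and *VPS33B* were below it together. These sets were drawn up after the values were seen, a set with more genes has more room to differ, and nothing particular to paralogs is read from the counts of sets with both signs.

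**Figure D4:**
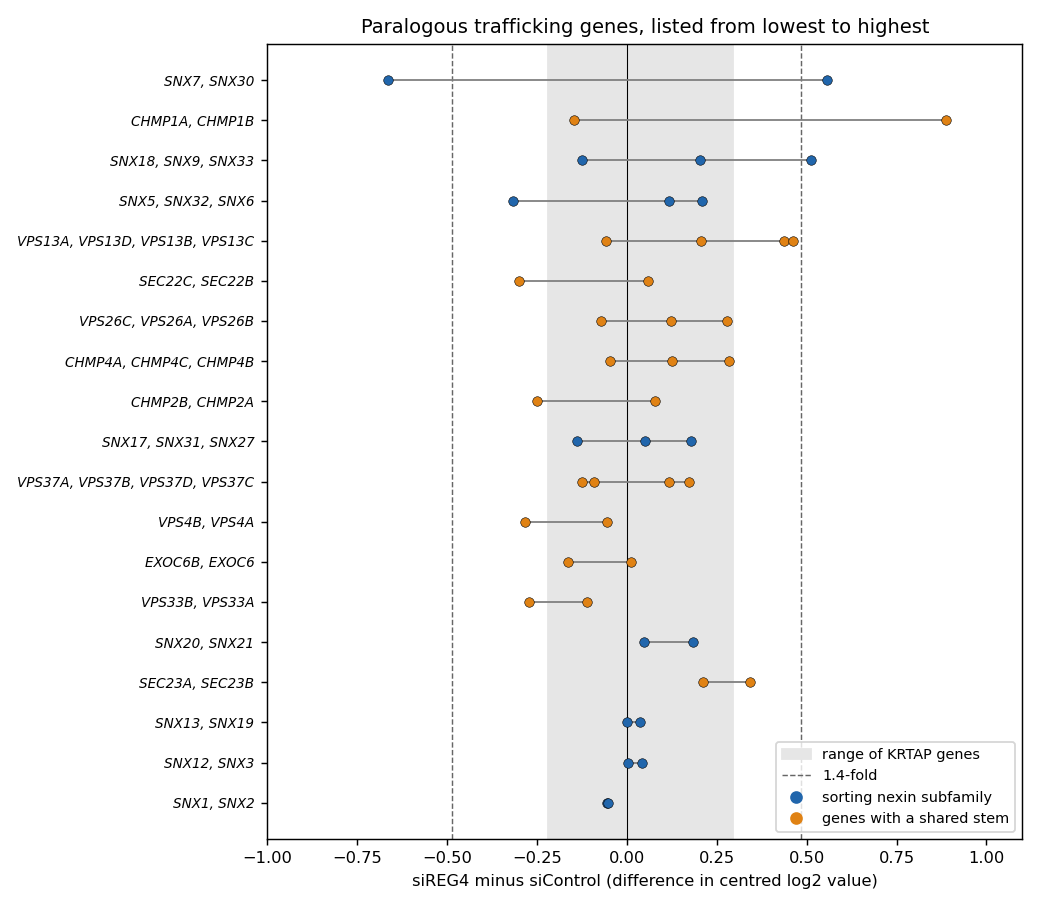
Difference between the arrays (siREG4 minus siControl, centred log2 value) for the genes of 11 stem sets (orange) and 8 sorting nexin subfamilies (blue), 1 point per gene and 1 row per set, ordered by the gap between its lowest and highest gene. *SNX7* and *SNX30* are 1.22 apart and *CHMP1A* and *CHMP1B* 1.04 apart, and most other sets lie within the grey *KRTAP* range or just outside it.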

How the data were processed

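Per the methods of the study, Human Gene 2.0 ST arrays were hybridized after GeneChip WT PLUS labelling and evaluated in GeneSpring. The authors deposited 1 table of log2 values (44629 probe sets, 2 arrays) that sum to 0 within 1e-06 in every row, so only differences remain. The log base was taken as 2. The sources used here do not give background correction, summarization or normalization, and precision is limited by the number of arrays.

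Gene symbols came from the platform annotation (15835 named probe sets), biotypes from RefSeq. Probe sets of a gene were averaged. No test was run. The per-gene calculation was run on simulated data over 14812 genes, where all 200 genes given a 2-fold change were recovered past 1.4-fold. Changes of that size are bound to pass, so this checks the code only and not the detection of smaller differences. Members, groups, lists and the *KRTAP* genes used as a gauge were chosen with earlier results of these data known. Named were all members past 1.4-fold, the 3 lowest and highest of each step, and the 2 lowest and highest of each partner list with those past 1.4-fold. Other named genes were chosen to complete a complex or after their values were seen. Alternatives were quantile normalization, median centring, other probe set rules, protein-coding members, means and other thresholds. Python 3.11.15, numpy 2.4.6, pandas 2.3.3 and matplotlib 3.10.9 were used.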

Additional observations from a re-analysis of the deposited data

How the results depend on the processing

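The counts of 4 lower, 3 higher and 7 genes in all past 1.4-fold became 13, 20 and 33 at 1.2-fold and 0, 0 and 0 at 2-fold, as a change of threshold must make them. The other settings were quantile normalization, median centring of each array, and the first probe set or the one with the largest difference for each gene. Also tried were protein-coding members only and leaving out members whose probe sets have opposite signs. Under all of these the counts stayed at 4 lower, 3 higher and 7 in all. With these settings and with means in place of medians, the medians had ranges of 0.02 to 0.04 for the members, 0.06 to 0.08 for ER to Golgi, 0.03 to 0.04 for endosome and -0.02 to 0.04 for exocytosis, where the median of 0.01 became 0.04 with the first probe set of each gene and -0.02 as a mean. The 7 genes past 1.4-fold kept their sign and their side of the threshold under quantile normalization, the only setting that could move them, since each encodes a protein and has 1 probe set. Both array medians were already 0.0, so centring could move nothing, and a filter on signal was not run because the values hold no level. No paired analysis was possible because each group holds 1 array.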

Other observations

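A non-coding gene named after a member was measured beside it in 4 cases. *STX18* differed by 0.41 while its antisense gene *STX18-AS1* was at 0.01, and *VPS9D1* and *VPS9D1-AS1* were at 0.04 and -0.12. *VPS13A* and *VPS13A-AS1* were both at -0.06, and *STX17* and *STX17-DT* were at -0.03 and -0.05. All of these but *STX18* lay within the *KRTAP* range.

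Of 7 members with several probe sets, 3 had probe sets of opposite sign: *SEC62* (0.33 and -0.08), *VPS37B* (-0.24 and 0.06) and *EXOC5* (0.04 and -0.09). All 7 genes past 1.4-fold had 1 probe set each, so none of them has a second measurement on these arrays.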
